A study of Caenorhabditis elegans with 12 samples.

Results

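The F-box A genes of Caenorhabditis elegans are described here by the small RNAs that lie antisense to them. Members were chosen by name alone, as every gene called fbxa followed by a number, and 221 of the 32238 genes in the tables met this rule. Of these, 170 are annotated as coding and 51 as pseudogenes. They lie on chromosome V (91 genes), III (73), II (21), X (17), I (13) and IV (6), in the genome build WBcel235 used for all positions below.

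An F-box protein holds a substrate for the SCF ubiquitin ligase, in which its F-box motif binds a SKP1-like adaptor (SKR proteins in C. elegans), the adaptor binds a cullin and the cullin carries a RING subunit. The F-box A family of nematodes is large and lies in clusters of tandem copies, and most of its members have no known substrate. Endogenous small interfering RNAs (endo-siRNAs) are short RNAs antisense to a transcript that Argonaute proteins bind. Primary endo-siRNAs of the ERGO-1 and ALG-3/4 Argonaute branches are cut by Dicer with RDE-4, a double-stranded RNA-binding protein that microRNA maturation does not need.

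Small RNAs were sequenced from whole hermaphrodites of 4 strains with 3 libraries each, one per independent population, so that 12 libraries were compared. The worms were young adults without visible embryos, grown at 20 °C on E. coli OP50. Beside wild type N2 (WT) there were an rde-4(ne301) strain, an age-1(hx546) strain and a double mutant of these alleles. The ne301 allele is a null allele of rde-4, and hx546 moderately lowers signaling through the PI3K of the insulin/IGF-1 pathway (IIS), which makes worms long-lived. Every cell of a mutant worm carries the mutation, so that an effect in the germline and an effect in the soma cannot be told apart. The comparisons ask which antisense small RNAs depend on RDE-4 in the WT and in the age-1 background, and how the age-1 mutation affects them. The preparation favors RNAs with a 5′ monophosphate, such as Dicer products, over secondary siRNAs with a triphosphate.

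The library totals ranged from 2449703 to 3590005 antisense counts. Most counts lay opposite microRNA genes (59.8% to 81.7%). Genes that face no annotated gene on the opposite strand took 6.25% to 9.29% of the counts in WT, 9.85% to 11.7% in age-1, 4.44% to 5.15% in rde-4 and 2.54% to 3.07% in double mutants. Genes opposite tRNA genes took 5.04% to 8.27% of the counts in WT, 14.3% to 21.6% in rde-4 and 17.7% to 28.4% in double mutants. In age-1 replicate 2 they took 23.8% of the counts, against 9.24% and 5.63% in the other age-1 libraries. Without that library 1 member (fbxa-193) was higher in age-1 than in WT. In the double mutant against age-1, 3 members were then lower (fbxa-3, fbxa-52 and fbxa-196) and 1 was higher (fbxa-72), against the counts with it given below. Over all 5932 tested genes, age-1 against WT gave 9 higher and 0 lower without it, against 618 and 139 with it. The double mutant against age-1 gave 471 higher and 1090 lower without it, against 530 and 1378. Leaving out other libraries also changed the calls of age-1 against WT. They were 15 higher and 2 lower without age-1 replicate 1, and 1254 and 603 without age-1 replicate 3. Without WT replicate 1, 2 or 3 they were 17 and 11, 252 and 77, and 73 and 44. The 4 known ERGO-1 targets K02E2.6, W04B5.1, C44B11.6 and E01G4.5 together had 925 to 1686 counts per library in WT, 1028 to 1455 in age-1, 7 to 13 in rde-4 and 0 to 6 in double mutants, so the libraries went with their rde-4 labels. As whole worms were used, fewer cells that make a small RNA and fewer small RNAs per cell cannot be told apart. Antisense counts of 10 loci targeted in the spermatogenic germline, all 10 of which had counts, summed to 222 to 397 CPM (counts per 1000000 of the library total) in WT, 592 to 763 in age-1, 45.9 to 60.8 in rde-4 and 29.1 to 60.9 in double mutants. Those of 8 oogenic-germline loci, all 8 with counts, summed to 29.7 to 70.5 CPM in WT, 23.1 to 46.1 in age-1, 20.8 to 47.1 in rde-4 and 9.99 to 19.1 in double mutants, and those of 6 intestine loci, all 6 with counts, to 1.81 to 5.86, 1.75 to 12.3, 5.79 to 9.86 and 0 to 4.01 CPM in the same order. The part of these differences in the results below was not tested.

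Antisense small RNAs of the family were few and uneven. A gene was tested if it had at least 10 counts in 3 or more of the 12 libraries. This left 31 members (14.0%), 24 of them coding and 7 pseudogenes, against 5932 of all genes (18.4%). Of the 31, 18 lie on chromosome V, 4 each on III and II, 3 on X and 1 each on I and IV. Chromosome III thus holds 73 members but only 4 that could be tested. Of the 190 members that were not tested, 15 had 0 counts in every library and the other 175 had a median total of 5 counts and at most 79 over the 12 libraries. Members without any count made up 6.79% of the family, against 22.0% of all genes. In 14 of the 31 tested members the minimum of 10 counts was reached in libraries of all 4 strains, and 5 reached it in all 12 libraries. Of the members called below, fbxa-52, fbxa-196 and fbxa-209 reached it only in WT and age-1 libraries. fbxa-184 did so only in WT and rde-4, and fbxa-72 only in rde-4 and double mutants. These genes entered the test through the strains where their counts were high, so the filter is not independent of the direction of their change.

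Among the 31 tested members, the mean level over the 12 libraries per kilobase of counted exon ran from 44.04 CPM per kb for fbxa-3 to 1.00 CPM per kb for fbxa-136. fbxa-202 (24.1 CPM per kb), fbxa-218 (22.4), fbxa-193 (19.9) and fbxa-149 (16.3) came next, and the sixth, fbxa-203, stood at 11.4 CPM per kb. The order below fbxa-3 depended on the strain. In WT the neighbours fbxa-149 (20.7 ± 1.53 CPM per kb, SD, n = 3) and fbxa-202 (19.6 ± 4.62) did not differ beyond their spread, while fbxa-193 stood at 4.12 ± 1.91. In rde-4, fbxa-218 (34.8 ± 6.53) and fbxa-193 (34.2 ± 3.25) were the highest and did not differ beyond their spread.

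Summed over all 221 members, antisense counts made up 459, 383 and 730.5 CPM of the library total in WT, 325, 365 and 498 in age-1, 399.7, 385 and 369 in rde-4 and 152, 218 and 181 in double mutants. All 3 double-mutant libraries lay below the other 9, and the other strains overlapped. The means were 524 ± 183 CPM in WT, 396 ± 90.6 in age-1, 385 ± 15.2 in rde-4 and 184 ± 33.2 in double mutants (SD, n = 3). A single member, fbxa-3, held 18.2% to 53.7% of the family's counts in the WT libraries and 16.5% to 29.8% in age-1, but at most 1.15% in the strains without RDE-4. Without it the means were 308 ± 33.4 CPM in WT, 313 ± 85.7 in age-1, 382 ± 16.8 in rde-4 and 184 ± 33.3 in double mutants. The rde-4 mean was then above the WT mean instead of below it. Relative to the counts of genes with no gene on the other strand, the whole family took 0.655% ± 0.215 in WT, 0.366% ± 0.0618 in age-1, 0.819% ± 0.0762 in rde-4 and 0.635% ± 0.0659 in double mutants. On this scale the double mutant was above age-1, the opposite order to that by library totals. No test was made on the sums.

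**Figure D1:**
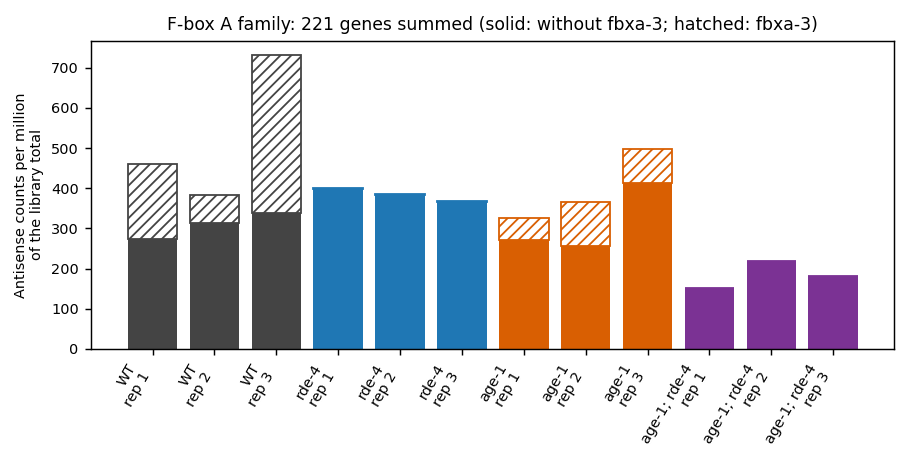
Antisense counts summed over the 221 F-box A genes, in CPM of the library total (linear axis from 0), for each of the 12 libraries. The solid part leaves out fbxa-3 and the hatched part is fbxa-3, which fills up to 53.7% of a WT bar and at most 1.15% of a bar of the strains without RDE-4.

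In rde-4 against WT, the absence of RDE-4 changed a few members, in both directions. Of the 31 tested members 2 were lower, fbxa-3 and fbxa-52, where 13.7% of all tested genes were lower. Another 3 were higher, fbxa-193, fbxa-60 and fbxa-184, where 9.19% of all tested genes were higher. The shares in the family were 6.45% lower and 9.68% higher. The median log2 fold change of the members was 0.33, against 0.05 over all tested genes, after TMM scaling (edgeR's scaling by the bulk of the genes). Scaled by library totals, both medians were lower by about the same amount, at -0.01 and -0.27.

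fbxa-3 (T08E11.7, coding, chromosome II, 1818889 to 1820874, minus strand) had the most antisense counts of the family. It had 516, 190 and 1035 counts in the WT libraries and 3, 7 and 11 in rde-4. It had 153, 390 and 266 counts in age-1 and 1, 0 and 1 in double mutants. Every library with RDE-4 lay above every library without it, while the WT libraries alone spread from 190 to 1035. Relative to WT, the log2 fold change in rde-4 was -6.06 (SE 0.71, adjusted p = 2.8e-05, edgeR quasi-likelihood test with Benjamini-Hochberg adjustment over all 5932 genes). In the age-1 background, the log2 fold change in the double mutant was -7.41 (SE 0.73, adjusted p = 1.5e-07), which with 2 counts in 3 libraries is a ratio of 191-fold (95% counting interval 52.8 to 1580), or 388-fold by library totals.

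These reads cannot be assigned to fbxa-3 alone. Its exons share 496 bases, between 1820242 and 1820874, with linc-16, a long intervening non-coding RNA on the same strand, which has 568 exon bases. linc-16 had 516, 188 and 1034 counts in WT, 153, 389 and 266 in age-1, 1, 6 and 8 in rde-4 and 1, 0 and 1 in double mutants. Over the 12 libraries fbxa-3 had 2573 counts and linc-16 had 2563, so that nearly all counts of fbxa-3 were also counts of linc-16. No other tested member had counts this close to those of an overlapping gene. fbxc-19, an F-box C gene on the other strand, shares 66 exon bases with fbxa-3, from 1820479 to 1820544. It had 16, 7 and 56 antisense counts in WT, 1, 3 and 4 in age-1, and 0 in all 6 libraries without RDE-4.

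**Figure D2:**
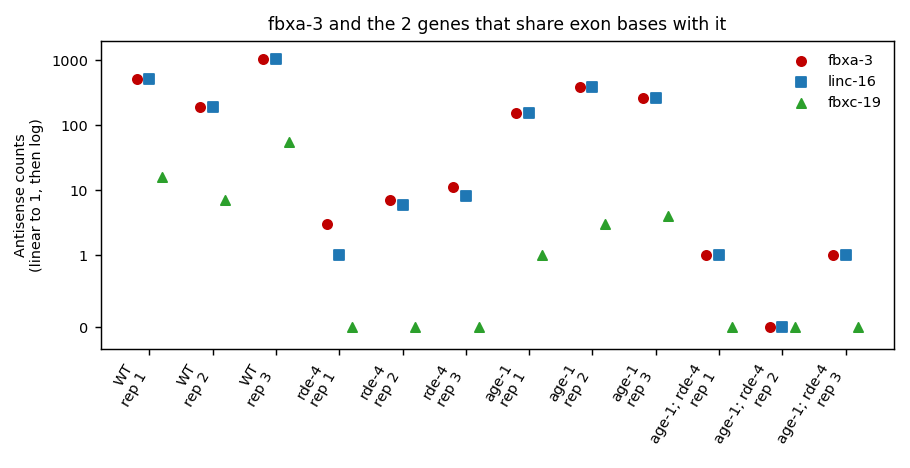
Raw antisense counts of fbxa-3, of linc-16 on the same strand and of fbxc-19 on the other strand in each of the 12 libraries (vertical axis linear up to 1, logarithmic above). The points of fbxa-3 and linc-16 lie almost on each other, from 1035 and 1034 in WT replicate 3 down to 0 in double mutant replicate 2.

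fbxa-52 (F07G6.6, coding, chromosome X, 1710149 to 1712638, minus strand) had far fewer counts, with little spread within a strain. It had 12, 12 and 13 counts in WT, 10, 15 and 17 in age-1, and 0 in all 3 rde-4 and all 3 double-mutant libraries. No annotated gene overlaps it on either strand. With rde-4 set to a floor of 3 counts (summed over its libraries), it was at least 9.49-fold lower in rde-4 than in WT (adjusted p = 0.00097), or at least 11.9-fold by library totals. In the double mutant it was at least 6.62-fold lower than in age-1 (adjusted p = 0.00077), or at least 13.4-fold by library totals. DESeq2 gave it no adjusted p in this comparison. The age-1 and WT libraries overlapped (log2 fold change -0.05, SE 0.44, adjusted p = 0.94).

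A further 3 members had more antisense small RNAs without RDE-4 in the WT background. The pseudogene fbxa-193 (F59A1.9, chromosome V, 17653482 to 17655281, minus strand) had 20, 8 and 11 counts in WT and 125, 92 and 97 in rde-4. The lowest rde-4 library, at 92 counts, stood well above the highest WT library, at 20. The level rose from 4.79 ± 3.54 to 44.5 ± 9.54 TMM-scaled CPM (SD, n = 3), for which the fitted log2 fold change was 3.28 (SE 0.48, adjusted p = 0.00014). fbxa-60 (T12B5.10, coding, chromosome III, 944733 to 946300) had 10, 11 and 11 counts in WT and 26, 24 and 33 in rde-4, with a log2 fold change estimated at 1.72 (SE 0.38, adjusted p = 0.003). fbxa-184 (F45C12.8, coding, chromosome II, 1710259 to 1711417) had 3, 5 and 11 counts in WT and 19, 19 and 21 in rde-4, with an estimate of 2.00 (SE 0.46, adjusted p = 0.0044). In each of the 3 genes the rde-4 libraries lay above all WT libraries. They lie on 3 chromosomes, and no annotated gene overlaps them. In double mutants against age-1, fbxa-60 stood at 0.56 (SE 0.55, adjusted p = 0.50, edgeR) and fbxa-184 at 0.46 (SE 0.80, adjusted p = 0.73). Neither passed, and by library totals these were -0.56 and -0.62. On that scale both were lower in double mutants than in rde-4 (-1.68, adjusted p = 0.028, and -2.48, adjusted p = 0.019). fbxa-60 lies in a cluster on chromosome III with fbxa-59, 1256 bases away, and fbxa-67, 2192 bases away. fbxa-59 had 9, 10 and 16 counts in WT and 3, 10 and 5 in rde-4 without passing the threshold (log2 fold change -0.59, SE 0.55, adjusted p = 0.55).

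**Figure D3:**
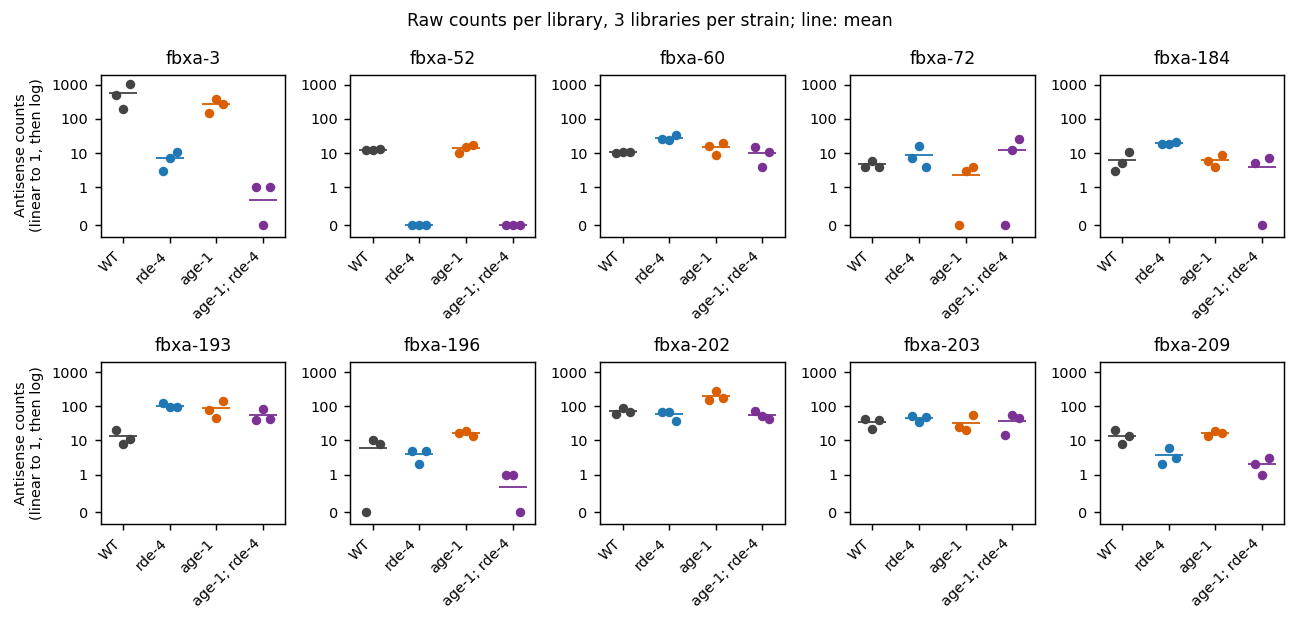
Raw antisense counts of the 10 members past the threshold in at least 1 comparison, 1 panel per gene and 1 point per library (vertical axis linear up to 1, logarithmic above, the line is the mean of 3 libraries). fbxa-3 and fbxa-52 drop in the strains without RDE-4 (fbxa-52 to 0 in all 6 libraries), while fbxa-193 is lowest in WT, at 8 to 20 counts against 40 to 145 in the other strains.

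In age-1 against WT, no member was lower by the edgeR test (0 of 31, where 2.34% of all tested genes were lower). At an unadjusted p under 0.05, 4 were lower (12.4% of all tested genes). By DESeq2 1 was lower, fbxa-3, where 155 genes were (2.61% of all tested genes). DESeq2 gave an adjusted p to only 2941 of the 5932 genes, 8 of them members, so that these 155 were out of 2941. Higher in age-1 were 2 members, fbxa-193 and fbxa-202, where 10.4% of all tested genes were higher. The members had a median log2 fold change of -0.21, against -0.14 over all tested genes. Samples with the same replicate number deviated together in this comparison. With the replicate number as a block 3 members were lower (fbxa-3, fbxa-199 and fbxa-218) and the same 2 were higher. The genes called in all went from 757 to 1940. Of all 5932 tested genes 679 were then lower and 1261 higher, against 139 and 618 without the block.

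fbxa-193 had 80, 46 and 145 counts in age-1 against 20, 8 and 11 in WT, again without overlap. The log2 fold change was 2.45 (SE 0.49, adjusted p = 0.019), and the adjusted p was 0.069 without age-1 replicate 1. fbxa-202 (T28C12.3, coding, chromosome V, 6327280 to 6328865, plus strand) had 157, 284 and 176 counts in age-1, the highest of the 4 strains, against 58, 91 and 67 in WT. It had 70, 69 and 37 counts in rde-4 and 73, 51 and 41 in double mutants. Its rise in age-1 was 1.33 (SE 0.36, adjusted p = 0.031) and did not pass by library totals (1.26, adjusted p = 0.068) or without any 1 of 5 of the 6 libraries, where it ranged from 0.92 to 1.41. fbxa-3 had a log2 fold change of -1.36 in age-1 (SE 0.51, adjusted p = 0.076), with overlapping libraries, and with the replicate block it was -1.21 (adjusted p = 0.016). fbxa-218 stood at -0.74 (SE 0.32, adjusted p = 0.12), and with the block at -0.74 (adjusted p = 0.031).

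Loss of RDE-4 in the age-1 background (double mutant against age-1) lowered fbxa-3, fbxa-52, fbxa-196 and fbxa-209, 4 of 31 members, where 23.2% of all tested genes were lower. It raised 2, fbxa-72 and fbxa-203, where 8.93% of all tested genes were higher. The median log2 fold change of the members was 0.34, against -0.03 over all tested genes. This comparison depended on the scaling. By library totals the median over all tested genes was -1.06 and that of the members was -0.68, with 7 members lower and 0 higher, where 36.8% of all tested genes were lower and 3.89% higher. The added ones were fbxa-117, fbxa-202 and fbxa-224. The direction of the members' median thus flipped, while it stayed above the median of all genes under either scaling.

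fbxa-196 (T05H4.2, coding, chromosome V, 6448656 to 6450217, plus strand) had 16, 19 and 13 counts in age-1 and 1, 1 and 0 in double mutants. The ratio was 11.4-fold lower (95% counting interval 2.98 to 96.4), or 23.0-fold by library totals, and the fitted log2 fold change was -3.38 (SE 0.85, adjusted p = 0.0029). In the WT background it had 0, 10 and 8 counts and in rde-4 5, 2 and 5, which overlapped (-0.13, SE 0.80, adjusted p = 0.95). It overlaps no annotated gene.

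fbxa-209 (Y36E3A.1, coding, chromosome V, 15423633 to 15427044, minus strand) had 20, 8 and 13 counts in WT, 13, 19 and 17 in age-1, 2, 6 and 3 in rde-4 and 2, 1 and 3 in double mutants. In raw counts, all libraries without RDE-4 lay below all libraries with it. The fold change passed in the age-1 background (-1.91, SE 0.66, adjusted p = 0.028) and not in the WT background (-1.59, SE 0.64, adjusted p = 0.095). The former did not pass by DESeq2 (-1.85, adjusted p = 0.09) or without age-1 replicate 1 (-1.90), age-1 replicate 2 (-1.68) or double mutant replicate 2 (-1.51). All 731 exon bases of Y36E3A.2, a coding gene on the other strand, lie within its exons, so that a read antisense to one is a sense read of the other. Y36E3A.2 had 129, 103 and 118 antisense counts in WT, 113, 145 and 129 in age-1, 0 in all rde-4 libraries and 0, 1 and 1 in double mutants.

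The genes that rose in double mutants did so without separating the strains. fbxa-72 (F31F4.15, coding, chromosome V, 674886 to 676753) had 0, 3 and 4 counts in age-1 and 0, 12 and 25 in double mutants. Its log2 fold change of 3.34 (SE 0.85, adjusted p = 0.0032) did not pass without double mutant replicate 3 (2.33, adjusted p = 0.11), by DESeq2 (3.64, adjusted p = 0.13) or by library totals (2.44, adjusted p = 0.069). The pseudogene fbxa-203 (W05F2.5, chromosome I, 3371769 to 3373834) had 24, 20 and 56 counts in age-1 and 14, 55 and 45 in double mutants, which overlap. Its 1.25 (SE 0.46, adjusted p = 0.039) became 0.25 (adjusted p = 0.73) by library totals, and did not pass without age-1 replicate 1 or 2 or without double mutant replicate 2 or 3.

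fbxa-202, highest in age-1, stood at -0.77 in double mutants against age-1 (SE 0.45, adjusted p = 0.21) and did not pass. By library totals it was -1.82 (adjusted p = 0.00019), and all 3 double-mutant libraries then lay below the age-1 libraries. fbxa-193, with 40, 84 and 42 counts in double mutants, stood at 0.39 against age-1 (SE 0.43, adjusted p = 0.57).

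**Figure D4:**
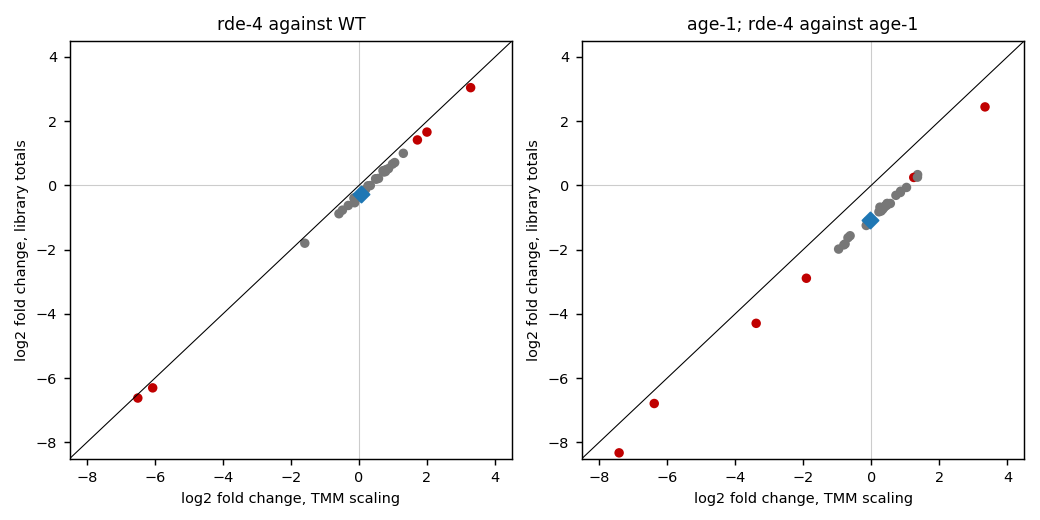
Log2 fold changes of the 31 tested members under TMM scaling (horizontal) and under scaling by library totals (vertical), for rde-4 against WT and for the double mutant against age-1. Red points passed the threshold with TMM scaling, the blue diamond is the median of all tested genes and the line marks equal values. In the right panel the points lie below the line, as the diamond does, which sits at -0.03 by TMM and at -1.06 by library totals.

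When RDE-4 was absent from both strains (double mutant against rde-4), no member was lower (0 of 31, where 0.185% of all tested genes were lower) and none was higher (0 of 31, where 0.455% of all tested genes were higher), by edgeR. DESeq2 gave an adjusted p to 3279 of the 5932 genes, 19 of them members. It called none of these 19, where 10 of the 3279 genes were lower and 65 were higher. At an unadjusted p under 0.05 in edgeR, 4 members were lower and 0 were higher, where 6.27% and 5.61% of all tested genes were. The members' median was -0.22, against -0.09 over all tested genes. By library totals the medians were -1.05 and -0.92, and 8 members were lower, where 16.5% of all tested genes were lower. The lowest of the members not otherwise listed was the pseudogene fbxa-117, with 27, 21 and 34 counts in rde-4 and 5, 4 and 6 in double mutants (-1.80, SE 0.50, adjusted p = 0.11). It passed with the replicate block (-1.79, adjusted p = 0.028) and by library totals (-2.63, adjusted p = 0.0068). fbxa-3 had 21 counts over the rde-4 libraries and 2 over the double-mutant libraries, a ratio of 6.74-fold lower (95% counting interval 1.65 to 59.3, adjusted p = 0.27).

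The effect of RDE-4 loss was compared between the backgrounds by an interaction contrast over all 12 libraries. No member passed in either direction by edgeR (0 of 31 lower, where 0.0169% of all tested genes were lower, and 0 of 31 higher, where 0.135% were higher). At an unadjusted p under 0.05, 3 members were lower and 3 higher, where 3.47% and 5.29% of all tested genes were. DESeq2 gave an adjusted p to only 2827 of the 5932 genes, 8 of them members. It called 1 member lower and 0 higher, where 7 and 18 of the 2827 genes were (0.118% and 0.303% of all 5932). That one was fbxa-193, whose level rose without RDE-4 in the WT background (3.28) and stood at 0.39 in the age-1 background. The difference was -2.55 (SE 0.65, adjusted p = 0.14). It passed by DESeq2 (-2.83, adjusted p = 0.009), by library totals (-3.71, adjusted p = 0.011), with the replicate block (-2.53, adjusted p = 0.046) and without WT replicate 1 (-3.64, adjusted p = 0.039). For fbxa-196, which passed in the age-1 background and not in the WT background, the difference of -2.97 did not pass (SE 1.31, adjusted p = 0.56). For fbxa-3 it was -1.05 (SE 1.22, adjusted p = 0.84).

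**Figure D5:**
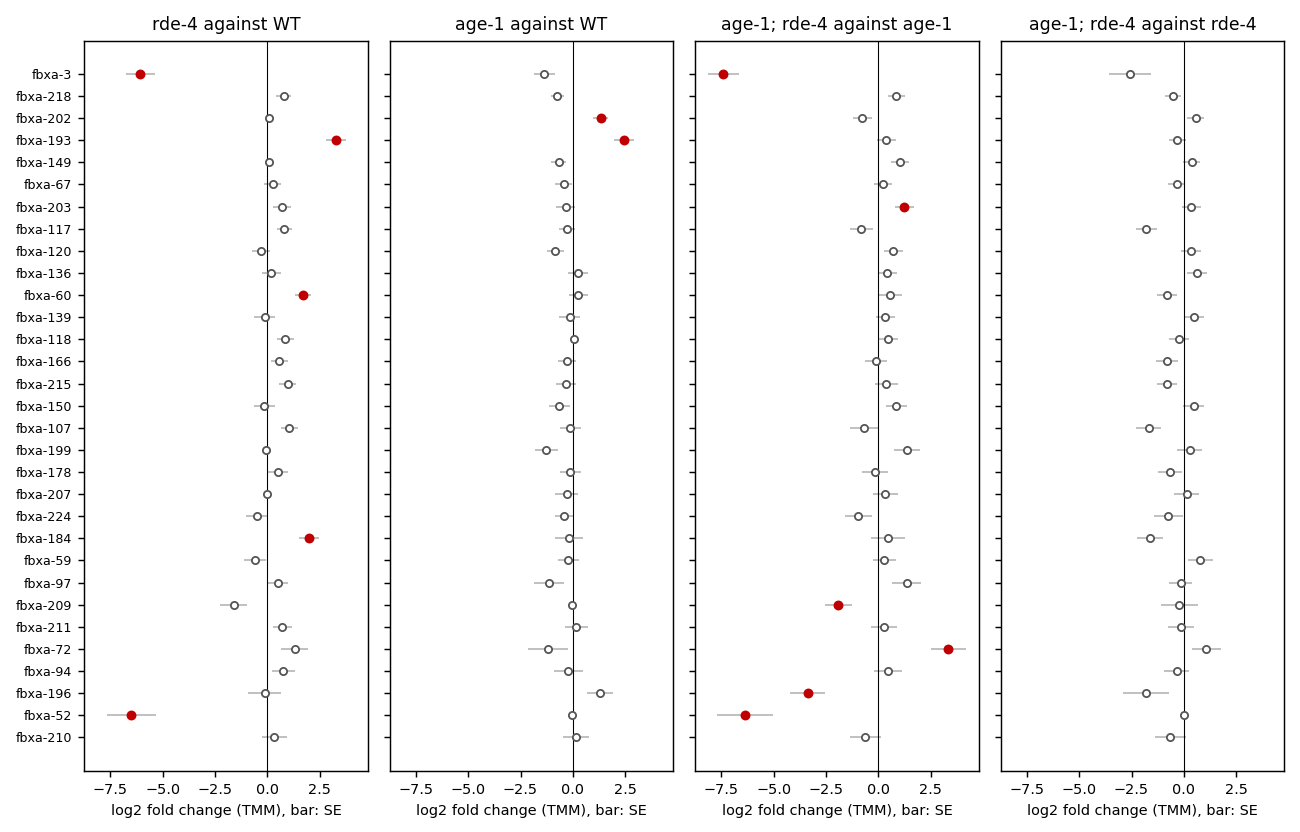
Log2 fold changes (TMM scaling, horizontal axis) of the 31 tested members in the 4 comparisons of 2 strains, ordered by mean CPM over the 12 libraries, the most abundant on top. Red points passed the threshold of 0.05 on the adjusted p, open points did not, and bars are standard errors, left out where the estimate lay within 0.1 of 0. fbxa-3 and fbxa-52 stand far to the left in both comparisons of RDE-4 loss, and no point of the last panel passed.

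Abundant members also included 2 that passed in no comparison by the edgeR test with TMM scaling on all tested genes and all libraries, without a replicate block. fbxa-218 (Y49E10.17, coding, chromosome III, 12436515 to 12441058) had 90, 145 and 155 counts in WT, 63, 89 and 119 in age-1, 187, 187 and 135 in rde-4 and 70, 107 and 51 in double mutants. It stood at 0.77 in rde-4 against WT (SE 0.37, adjusted p = 0.17) and at 0.86 in double mutants against age-1 (SE 0.41, adjusted p = 0.12). With genes facing another gene left out, the former passed (0.94, adjusted p = 0.048, edgeR), as did the latter (1.17, adjusted p = 0.035). The latter also passed with edgeR's own filter on low counts (1.16, adjusted p = 0.018). By library totals in edgeR neither passed, at 0.43 (adjusted p = 0.60) and, with the sign reversed, -0.18 (adjusted p = 0.72). On that scale fbxa-218 was lower in double mutants than in rde-4 (-1.36, adjusted p = 0.035). The pseudogene fbxa-149 (Y38H6C.10, chromosome V, 20516298 to 20518036) had 57, 62 and 63 counts in WT, 34, 33 and 71 in age-1, 56, 40 and 58 in rde-4 and 43, 44 and 41 in double mutants. Its libraries lay within a narrow range in every strain but age-1, where replicate 3 was about as high as WT. In double mutants against age-1 it stood at 1.04 (SE 0.41, adjusted p = 0.059). It passed by DESeq2 (1.16, adjusted p = 0.038), with RLE size factors (1.16, adjusted p = 0.039) and without age-1 replicate 3 (1.21, adjusted p = 0.018). It also passed with edgeR's own filter (1.31, adjusted p = 0.0097) and with genes facing another gene left out (1.34, adjusted p = 0.013). By library totals in edgeR fbxa-149 did not pass and its sign was reversed (-0.06, adjusted p = 0.91). The 17 tested members not described one by one had median log2 fold changes of 0.33 in rde-4 against WT, -0.30 in age-1 against WT, 0.33 in double mutants against age-1 and -0.22 in double mutants against rde-4. In rde-4 against WT they ran from -0.49 (fbxa-224) to 1.05 (fbxa-107). Their summed level was 99.7 ± 4.71 CPM of the library total in WT, 80.4 ± 27.6 in age-1, 102 ± 5.82 in rde-4 and 46.9 ± 6.81 in double mutants (SD, n = 3). The 190 untested members summed to 67.2 ± 11.4 CPM in WT, 57.4 ± 19.8 in age-1, 86.1 ± 10.3 in rde-4 and 35.0 ± 7.04 in double mutants.

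Close to the minimum of 10 counts, fbxa-94 and fbxa-59 were just inside, with a third-highest count of 10 each, and fbxa-194 and fbxa-206 just outside, with 9 each. fbxa-94 ran from 2 to 12 counts per library, fbxa-59 from 3 to 21, fbxa-194 from 3 to 12 and fbxa-206 from 0 to 12. fbxa-94 lies opposite mdt-28, and fbxa-194 overlaps fbxa-118 on the same strand. FBXA-75 and FBXA-158 act with the cullin CUL-6 in the intracellular pathogen response, which microsporidia and viruses induce in the intestine. fbxa-75 (Y119D3A.1, chromosome III, 1303714 to 1305461) had 2 counts in WT replicate 3 and 0 in the other 11 libraries, and fbxa-158 (C08E3.10, chromosome II, 1619814 to 1621280) had 0 in all 12. At this depth, antisense small RNAs of neither gene could be compared.

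Of all members, 25 have an annotated exon on the other strand, as do 4 of the tested ones (fbxa-3, fbxa-94, fbxa-207 and fbxa-209). Tested members also lay close together on chromosome V, where fbxa-107, fbxa-210 and fbxa-211 are 127 to 2271 bases apart and fbxa-149 and fbxa-150 are 4561 bases apart. By edgeR with TMM scaling on all tested genes and all libraries of a comparison, none of these 5 passed. Under alternatives, fbxa-149 passed as given above, and fbxa-107 was lower in double mutants than in rde-4 by library totals (-2.50, adjusted p = 0.019). With genes facing another gene left out, fbxa-107 was higher in rde-4 than in WT (1.21, adjusted p = 0.049, edgeR). Reads with up to 50 hits were kept, so that a read may be counted on another near-identical copy, which was not tested, and values of single members of such clusters are uncertain.

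The other F-box families and the ligase they work with had few genes with enough counts. Of 113 F-box B genes 6 could be tested, and 0 were lower or higher in any comparison (at an unadjusted p under 0.05, 1 was higher in rde-4 against WT, 1 lower in age-1 against WT and 1 higher in double mutants against age-1). Of 56 F-box C genes 6 could be tested, and fbxc-37 and fbxc-38 were lower in rde-4 than in WT, in age-1 than in WT and in double mutants than in age-1. Of all tested genes 13.7%, 2.34% and 23.2% were lower in the same order. fbxc-37 had 394, 76 and 306 counts in WT, 36, 39 and 42 in age-1, 3, 0 and 4 in rde-4 and 0, 0 and 1 in double mutants. Its log2 fold change was -6.54 in rde-4 against WT (SE 0.85, adjusted p = 6.4e-05) and -3.09 in age-1 against WT (SE 0.55, adjusted p = 0.014). No member of the F-box A family was lower in age-1 by the edgeR test on all libraries without a replicate block. With the block 3 of 31 were (fbxa-3, fbxa-199 and fbxa-218), where 679 of all 5932 tested genes were lower.

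Among 25 genes of the SCF complex 4 could be tested. rbx-1, which encodes the RING subunit, was lower in both comparisons of RDE-4 loss (-2.04, SE 0.49, adjusted p = 0.0052 in rde-4 against WT, and -2.43, SE 0.53, adjusted p = 0.0009 in double mutants against age-1). cul-1, the cullin of the complex, had 60, 83 and 101 counts in age-1 and 8, 6 and 5 in double mutants (-2.54, SE 0.48, adjusted p = 0.0002). Of 9 other F-box genes 3 could be tested, and sel-10, whose protein targets Notch receptors for degradation, was lower in double mutants than in age-1 (-2.14, SE 0.59, adjusted p = 0.0063). Over all tested genes 13.7% were lower in rde-4 against WT and 23.2% in double mutants against age-1. Of the 7 genes of the pathogen-response ligase, 0 had enough counts to be tested.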

How the data were processed

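Total RNA of 12 populations was size-selected for inserts of 18 to 40 bp and sequenced as single 50 bp reads. For alignment to WBcel235 (WS283 with the RefSeq annotation) the authors ran Bowtie within QuasR, allowing at most 50 hits, and counted reads on the strand opposite to each gene. Tool versions: not given in the sources used here. In each table the deposited values (3 tables) are raw counts per gene, neither normalized nor pooled, next to a gene length. In 6 repeated columns 0 values differed, so each library was used once. Sample columns of other samples numbered 0.

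Genes with at least 10 counts in 3 or more of the 12 libraries (5932) went into the two-sided quasi-likelihood F test of edgeR 4.0.16 (R 4.3.3, TMM scaling, Benjamini-Hochberg over all tested genes, threshold 0.05), each pair on its 6 libraries and the interaction on 12. Standard errors were taken from the F statistic. DESeq2 1.42.0, other scalings, other filters, leaving out overlapped genes, a replicate block and leaving out each library were alternatives. Folds against groups at 0 set the group's sum to 3 counts as a floor, and ratios with few counts an exact binomial 95% interval, both of which cover counting error only. Library totals were 2449703 to 3590005, so that 10 counts were a few CPM. Levels between genes were compared per kilobase of the deposited length, which is longer than the annotated gene for 3 tested members (fbxa-107, fbxa-118 and fbxa-211). Gene positions and overlaps came from Ensembl release 115 for that build, in which all 221 members were found.

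Described one by one were the members past the threshold in any comparison, the 5 with the highest mean CPM, 2 on each side of the count minimum, and fbxa-75 and fbxa-158. The members and gene lists were chosen with earlier results of these data known. Same-numbered replicates correlated in their deviations in rde-4 against WT (r = 0.29, 0.16 and 0.36) and age-1 against WT (0.31, 0.19 and 0.35), but not in each pair of the double mutant with age-1 (0.18, -0.16 and 0.15) or with rde-4 (0.23, 0.06 and 0.12). The pairing rests on these correlations, since the labels give only a number. The test was tested on simulated counts with 200 changed genes.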

Additional observations from a re-analysis of the deposited data

Results flagged for a closer look

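For 3 members, every library of the mutant lay above every control library in the presence or the absence of the other mutation and below every control library in the opposite case (TMM-scaled CPM). For each the test of the difference itself did not pass. How many of all tested genes show such a pattern was not counted, so these members cannot be set against that share. The pattern also depended on the scaling. By library totals the rde-4 and WT libraries of fbxa-117 overlapped, as did the age-1 and WT libraries of fbxa-149. For fbxa-117, the effect of RDE-4 loss was 0.81 in the WT background and -0.80 in the age-1 background and the log2 difference was -1.29 (adjusted p = 0.56). Its counts were 16, 21 and 23 in WT, 27, 21 and 34 in rde-4, 15, 16 and 26 in age-1 and 5, 4 and 6 in double mutants. For fbxa-149, the age-1 effect was -0.67 in animals with RDE-4 and 0.37 in animals without it, a log2 difference of 1.26 (adjusted p = 0.50). For fbxa-196, the age-1 effect was 1.30 with RDE-4 and -1.81 without it, a log2 difference of -2.97 (adjusted p = 0.56), at 12 counts over the rde-4 libraries and 2 over the double-mutant libraries.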

How the results depend on the processing

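For the named members, 956 values under alternatives stayed on their side of the threshold, 30 passed where they had not and 21 no longer passed. The sign changed in 85 of the 956, all past the threshold under neither setting, and 0 values that passed under either changed sign. In rde-4 against WT, leaving out genes with an opposite-strand gene left 27 members. Of these 1 was lower and 5 were higher, where 596 and 168 of 3951 genes were. In age-1 against WT, 1 was lower by DESeq2 and 3 with the replicate block, where 155 and 679 of 5932 genes were. DESeq2 gave an adjusted p to 2941 of these genes. By library totals 1 was higher, where 138 of 5932 genes were. In double mutants against age-1, the members lower were 2 by DESeq2 (which gave fbxa-52 no adjusted p), 7 by library totals, 7 by counts opposite miRNA genes and 2 after removal of genes with a gene opposite. Those higher were 0 (library totals), 1 (miRNA), 1 (no filter) and 5 (opposite genes left out). Over all tested genes 1165, 2182, 2086 and 924 were lower, and 231, 258, 377 and 289 were higher, in the same orders. These fits held 5932 genes, but 21792 (169 members) with no filter and 3951 (27 members) with opposite genes left out. In double mutants against rde-4, 8 were lower by library totals, 4 by miRNA counts and 1 (fbxa-117) with the replicate block. Of 5932 genes 976, 369 and 42 were lower in the same order. In the interaction 1 was lower (fbxa-193) by DESeq2, library totals, miRNA counts, no filter and the replicate block. Of all genes 7, 59, 71, 3 and 4 were lower in the same order, out of 5932 (2827 with an adjusted p by DESeq2), or 25161 with no filter.

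With the replicate block in rde-4 against WT, where the numbers also pair, the 2 lower and 3 higher members were unchanged, and in all 1625 instead of 1359 genes passed. Leaving out 1 library gave 2 to 3 members lower and 3 higher in rde-4 against WT, 0 to 2 lower and 0 to 2 higher in age-1 against WT, 3 to 5 lower and 0 to 5 higher in double mutants against age-1, and 0 to 1 lower in the interaction. Over all 5932 genes, rde-4 against WT then gave 677 to 793 lower and 384 to 585 higher. For age-1 against WT these were 0 to 603 and 9 to 1254, and for double mutants against age-1 1090 to 1566 and 424 to 623. The interaction gave 1 to 2 lower. The log2 ratio of the family sums was -0.45 in rde-4 against WT (0.32 relative to genes with no opposite gene, 0.31 without fbxa-3, an alternative chosen after seeing the data, and -0.63 to -0.13 without 1 library). It was -0.40 in age-1 against WT (-0.84, 0.0242, and -0.60 to -0.09), -1.11 in double mutants against age-1 (0.80, -0.77, and -1.25 to -0.91) and -1.07 in double mutants against rde-4 (-0.37 relative to genes with no opposite gene, -1.06 without fbxa-3, and -1.21 to -0.95).

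Over all genes, library totals turned 530 higher and 1378 lower calls in double mutants against age-1 into 231 and 2182, and 27 and 11 against rde-4 into 15 and 976. In age-1 against WT, 757 calls became 180 by library totals and 1940 with the block. Without 1 library they ranged from 9 (age-1 replicate 2 left out) to 1857 (age-1 replicate 3 left out). A refit after removal of genes facing another gene gave 764 calls against 1359 in rde-4 against WT and 1213 against 1908 in double mutants against age-1. Against rde-4, the 38 calls became 75 by DESeq2, 991 by library totals, 382 by miRNA counts, 69 with no filter, 12 without opposite genes and 135 with the block. The 9 calls of the interaction became 25, 61, 73, 12, 1 and 26 in the same order, and 1 with RLE factors. The cause was not tested. A restriction to members that share no 20-base exon stretch was not run. The 190 members below the count minimum were not tested.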
